A study of Mus musculus with 16 samples.

Results

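Matricellular proteins are secreted into the extracellular matrix without building its fibres. They bind collagens, growth factors and cell surface receptors, and through these contacts they change how cells attach, migrate and answer to signals such as TGF-beta. They are known from wounds, remodelling bone and the stroma of tumours, where fibroblasts, vessel cells and activated macrophages make them, and thrombospondin-1 is also stored in platelets. The 10 genes described here are Sparc and Sparcl1 of the SPARC family, Cyr61 and Ctgf of the CCN family, the thrombospondins Thbs1 and Thbs2, the fasciclin-domain genes Postn and Tgfbi, Tnc (tenascin-C) and Spp1 (osteopontin). They were taken by symbol from a table of 23999 gene symbols. The set was chosen by its values in these samples, because Sparc, Sparcl1 and Cyr61 stood higher and Tgfbi lower in sarcoma than in marrow. The tissue values of the 10 genes are therefore given as a description, with no test. All 10 had counts in both tissues and passed the filter on low counts.

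Mouse myeloid sarcomas, masses that acute myeloid leukaemia forms in other tissues, were sequenced for RNA together with whole bone marrow that the leukaemia had infiltrated. All mice carried NPM1cA, a mutant form of the nucleophosmin gene found in this leukaemia. The groups were sarcomas of 4 SMC3+/- mice in 6 libraries, as mice 948 and 2721 gave 2 tumours each, 1 sarcoma of mouse 841, labelled SMC3 wild type, and whole bone marrow of 9 SMC3+/- mice. Mice 1267 and 2721 gave both tissues. Summing the tumours of a mouse left 14 samples. The label 1268_1270, read here as 1 animal, could also stand for 2 that were pooled. The sources used here give neither the promoter or recombinase behind the alleles nor the ages of the mice, and marrow of SMC3 wild type mice was not analysed here. Marrow was crushed out of bone, filtered and freed of red cells before lysis in Trizol, while tumours were lysed at once, so tissue and handling cannot be told apart.

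Total counts were 12072482 to 33605464 in the SMC3+/- sarcoma libraries, 9797201 in the wild type sarcoma and 12395041 to 39197660 in marrow. Levels below are CPM, counts scaled to a common library total, here on totals scaled by TMM, an edgeR method that corrects for a few very abundant genes. Smc3, which encodes the cohesin subunit that the genotype leaves with a single intact copy, was at 142 CPM in the wild type sarcoma, while SMC3+/- sarcomas spanned 63.3 to 216 CPM, so its level does not set the genotypes apart. Some libraries stood apart. Sarcoma 1268_1270 had 546 CPM of 10 summed leukocyte markers, against 5401 to 8783 CPM in the other SMC3+/- sarcomas and 6410 to 12195 CPM in marrow, and its 7 adipocyte markers summed to 40969 CPM, against 184 to 594 CPM in the other SMC3+/- sarcomas. Marrows 737, 779 and 782 were poor in long transcripts, with median log2 deviations of -2.16, -2.21 and -2.06 from the median library over transcripts longer than 6 kb. Marrow 1267 was at -0.73 and tumour 1 of mouse 948 at -0.56 on this measure, and the other 11 libraries lay between -0.04 and 0.42. Smc3 itself was at 3.50 to 8.09 CPM in the 3 poorest marrows, against 133 to 237 CPM in the other 6.

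Promoter sequences of RefSeq on build GRCm38.p6 were found for 7 of the 10 genes, in 10 windows that each hold 250 bases before the transcription start and 50 after it. Sparcl1, Ctgf and Thbs1 are named only. The windows of Sparc, Cyr61 and Tgfbi are shown because the 3 genes led the choice of the set, the first 2 of them higher and the third lower in sarcoma. The 4 motifs were searched on both strands, with matches in capitals, and were GGAATG, bound by the TEAD factors through which YAP and TAZ act, TGANTCA, bound by AP-1, CAGACA, bound by the SMAD factors of TGF-beta signalling, and the CArG box of serum response factor. None of these motifs overlapped another in the windows shown.
Sparc, chr11:55420031-55420330, minus strand: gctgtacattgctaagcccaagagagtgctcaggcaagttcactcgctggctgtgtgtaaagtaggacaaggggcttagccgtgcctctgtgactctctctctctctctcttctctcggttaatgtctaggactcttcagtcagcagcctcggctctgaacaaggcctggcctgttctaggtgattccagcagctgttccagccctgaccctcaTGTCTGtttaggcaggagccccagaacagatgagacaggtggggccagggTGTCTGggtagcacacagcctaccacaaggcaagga
Cyr61, chr3:145649936-145650235, minus strand: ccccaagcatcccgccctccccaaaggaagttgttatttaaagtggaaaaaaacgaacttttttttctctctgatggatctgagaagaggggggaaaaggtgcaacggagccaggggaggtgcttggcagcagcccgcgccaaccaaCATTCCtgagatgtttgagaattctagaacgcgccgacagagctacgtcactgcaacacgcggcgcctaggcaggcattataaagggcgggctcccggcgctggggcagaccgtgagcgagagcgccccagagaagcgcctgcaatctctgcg
Tgfbi, chr13:56609336-56609635, plus strand: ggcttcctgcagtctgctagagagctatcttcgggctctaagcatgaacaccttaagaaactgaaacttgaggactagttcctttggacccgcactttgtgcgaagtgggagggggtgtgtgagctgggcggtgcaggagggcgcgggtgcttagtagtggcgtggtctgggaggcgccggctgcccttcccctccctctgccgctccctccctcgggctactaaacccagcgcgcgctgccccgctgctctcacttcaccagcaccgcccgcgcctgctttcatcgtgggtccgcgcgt
The Cyr61 window held 1 TEAD match, in reverse orientation and starting at -103 from the transcription start, and TEAD matches were found in 14.7% of 32851 mouse promoters of the same length. The Sparc window held 2 SMAD matches, starting at -36 and at 15, and a SMAD match was found in 21% of promoters. The Thbs2 window, which is not printed, also held 2 SMAD matches, the overlapping windows of Tnc held 1 and 2, and 1 of the 2 Spp1 windows held 1. The Tgfbi window held none of the 4 motifs. AP-1 matches were found in 7.81% and CArG boxes in 1.63% of promoters, and no window of the 7 genes held either. A match says only that these letters are present.

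Sparc encodes a collagen-binding glycoprotein also known as osteonectin. Sparc stood at 149, 533, 6678 and 247 CPM in the sarcomas of mice 948, 1267, 1268_1270 and 2721, at 299 CPM in the wild type sarcoma, and at 0.141 to 5.82 CPM (median 0.983) in the 9 marrows. Every sarcoma was above every marrow, and 1268_1270 alone held 87.8% of the summed level of the 4 SMC3+/- sarcomas. On the log2 CPM scale Sparc averaged 9.23 ± 2.44 in SMC3+/- sarcomas (SD, n = 4) and 0.33 ± 1.51 in marrow (SD, n = 9). The fitted log2 fold change, SMC3+/- sarcoma over marrow, was 10.02, and it was 7.25 without 1268_1270 and 8.83 with the mouse as a block. Here and below, the block fit takes its tissue difference only from mice 1267 and 2721, which gave both tissues. Mouse 1267 had 533 CPM in its sarcoma and 0.360 CPM in its marrow, and mouse 2721 had 247 CPM in its sarcoma and 0.983 CPM in its marrow. The tissues thus differed within both mice as well. In bulk RNA, fewer cells of a type and less RNA per cell cannot be told apart.

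Sparcl1, the paralog of Sparc also known as hevin, is a matrix glycoprotein of vessels and stroma. Sparcl1 stood at 5.90, 17.4, 362 and 55.2 CPM in the sarcomas of mice 948, 1267, 1268_1270 and 2721, and at 25.5 CPM in the wild type sarcoma. It had no count in 8 of 9 marrows and 3 counts, 0.0987 CPM, in marrow 3332. The ratio of pooled counts, SMC3+/- sarcoma over marrow, was 6021, with an exact 95% interval of 2060 to 29199 that covers counting error only. Sarcoma 1268_1270 held 82.2% of the summed sarcoma level.

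Cyr61 and Ctgf, now also named Ccn1 and Ccn2, are integrin-binding CCN proteins and textbook targets of YAP and TEAD. Cyr61 stood at 8.43, 28.9, 45.3 and 7.30 CPM in the sarcomas of mice 948, 1267, 1268_1270 and 2721, at 7.72 CPM in the wild type sarcoma, and at 0 to 1.86 CPM (median 0.0317) in marrow, with 4 of 9 marrows at 0. Ctgf stood at 12.9, 63.0, 25.9 and 21.6 CPM in the same 4 sarcomas, at 24.6 CPM in the wild type sarcoma, and at 0 to 4.44 CPM (median 0.566) in marrow, with 3 marrows at 0. Neither gene overlapped between sarcoma and marrow, and the highest marrow for both was that of mouse 2721. The fitted log2 fold change, SMC3+/- sarcoma over marrow, was 5.94 for Cyr61 and 4.91 for Ctgf. Without marrow 2721 it was 7.24 for Cyr61 and 6.03 for Ctgf, and without sarcoma 1268_1270 it was 5.27 for Cyr61. Within mouse 1267, Cyr61 was higher in sarcoma by a log2 difference of 7.78, and within mouse 2721 by 1.93. Sarcoma 1268_1270 held 50.4% of the summed Cyr61 level and 21.0% of that of Ctgf, a smaller part than it held of Sparc.

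**Figure D1:**
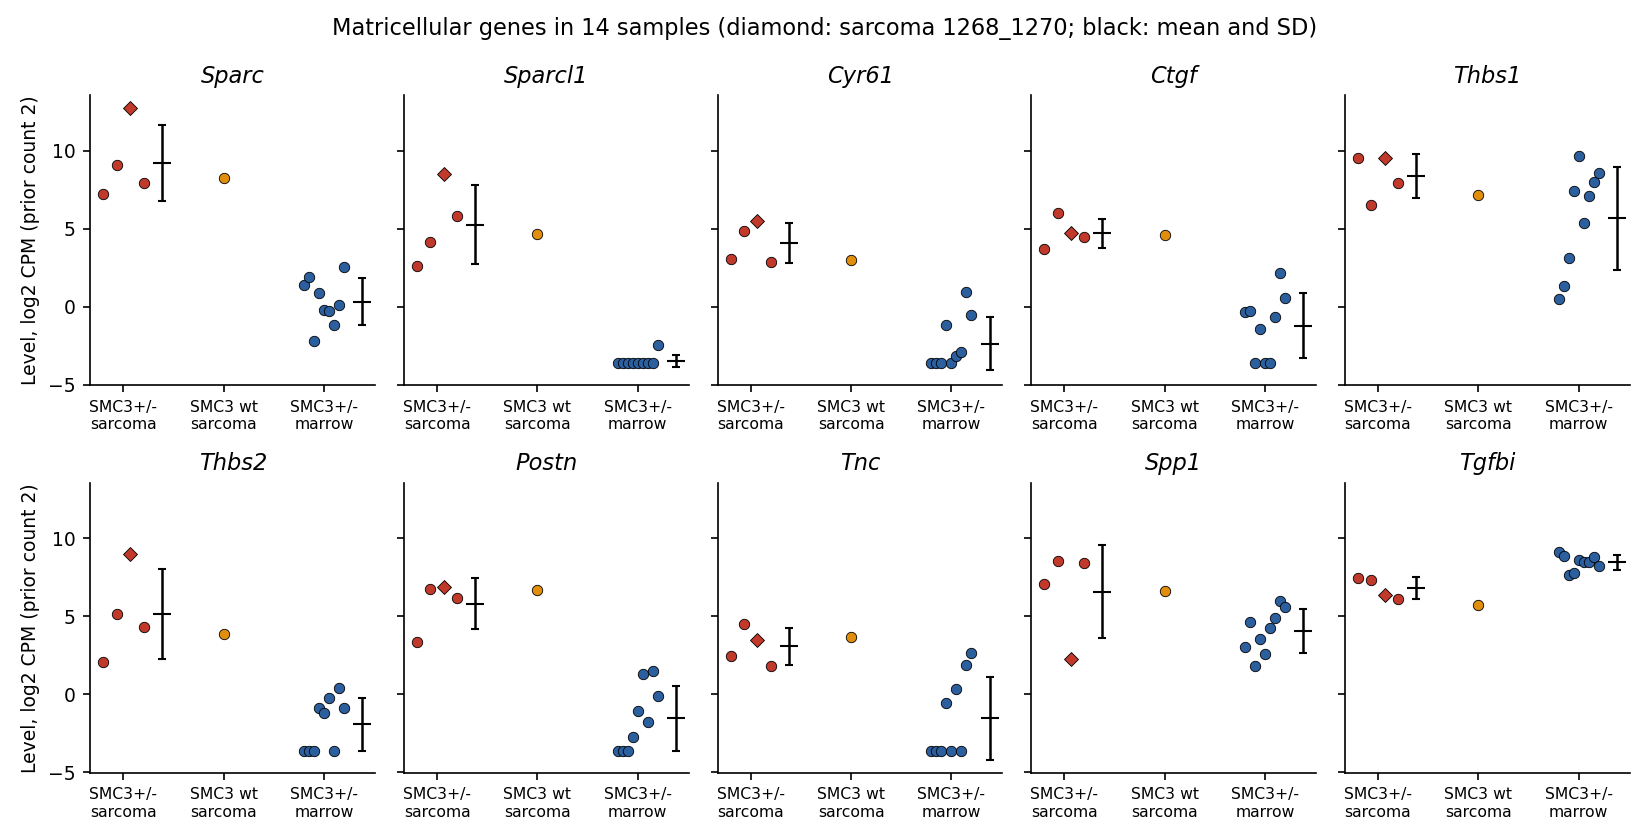
Level of each of the 10 matricellular genes as log2 CPM (vertical axis, prior count 2) in 4 SMC3+/- sarcomas, 1 sarcoma labelled SMC3 wild type and 9 SMC3+/- marrows, with 1 point per mouse and tissue, a diamond for sarcoma 1268_1270, and the mean and SD in black for the 2 groups with more than 1 mouse. Sparc, Sparcl1, Cyr61, Ctgf, Thbs2 and Postn stand above every marrow in all sarcomas. Thbs1, Tnc and Spp1 overlap, and Tgfbi stands below every marrow in all sarcomas. The fitted direction of Tgfbi turned with scaling to leukocyte markers, which raises sarcoma 1268_1270 the most.

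Thbs1 encodes thrombospondin-1, which activates latent TGF-beta and binds the receptors CD36 and CD47. Thbs1 stood at 736, 93.3, 735 and 246 CPM in the sarcomas of mice 948, 1267, 1268_1270 and 2721, at 145 CPM in the wild type sarcoma, and at 1.36 to 800 CPM (median 137) in marrow. The groups overlapped, and 5 of 9 marrows were above the lowest SMC3+/- sarcoma. The 3 lowest marrows, at 1.36, 2.39 and 8.51 CPM, were 737, 779 and 782, the ones poor in long transcripts, whereas the other 6 held 41.2 to 800 CPM. The Thbs1 transcript is 5848 bases long, and it deviated in these 3 marrows by -6.75, -5.97 and -4.18 (log2, from the median library), while the median transcript of 5 to 7 kb deviated by -1.09, -1.20 and -1.06. The part of transcript length in the low Thbs1 values was not tested. Thbs1 had a fitted log2 fold change, SMC3+/- sarcoma over marrow, of 1.10, and -0.56 with the mouse as a block. Leaving out each mouse gave 0.69 to 1.85, the highest without marrow 949. The block fit draws only on the mice that gave both tissues. Their log2 difference was -0.55 for mouse 1267 and -0.03 for mouse 2721.

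Thbs2 encodes thrombospondin-2, an inhibitor of vessel growth made by fibroblasts. Thbs2 stood at 4.09, 35.05, 514 and 19.7 CPM in the sarcomas of mice 948, 1267, 1268_1270 and 2721, at 14.7 CPM in the wild type sarcoma, and at 0 to 1.24 CPM (median 0.350) in marrow. No marrow reached the lowest sarcoma, unlike for Thbs1. Sarcoma 1268_1270 held 89.7% of the summed sarcoma level, and the fitted log2 fold change, SMC3+/- sarcoma over marrow, was 8.48 with it and 5.52 without it. With 5895 bases its transcript is about as long as that of Thbs1. The 4 marrows without a Thbs2 count were 737, 779, 782 and 1267, the 4 lowest in long transcripts. Marrows 737, 779 and 782 also had no count of the shorter transcripts of Cyr61 (2019 bases) and Postn (3205 bases). The part of transcript length in the Thbs2 zeros was not tested.

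**Figure D2:**
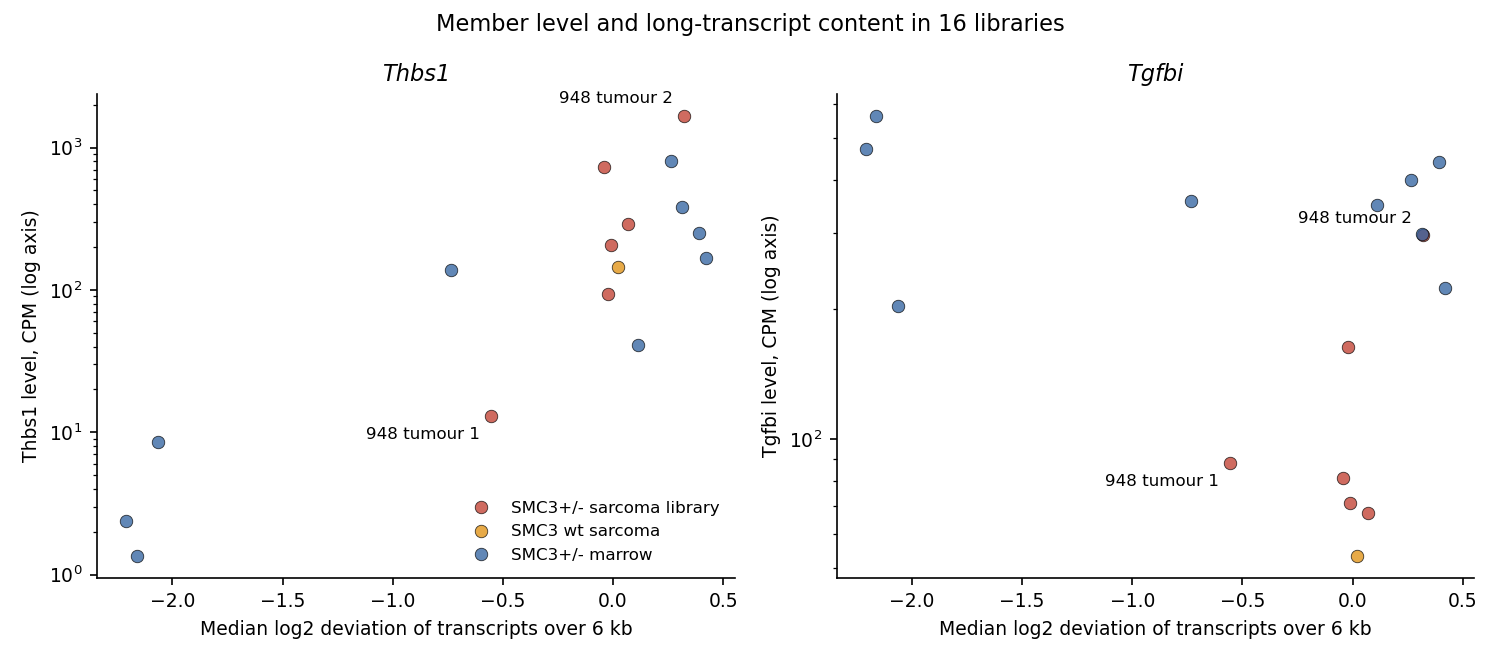
Level of Thbs1 (left) and Tgfbi (right) in CPM on a log axis against the median log2 deviation of transcripts longer than 6 kb from the median library, with 1 point for each of 16 libraries coloured by group. The 3 marrows near -2 on the horizontal axis hold 1.36 to 8.51 CPM of Thbs1 but 203 to 563 CPM of Tgfbi, and the tumours of mouse 948 hold 12.97 and 1678 CPM of Thbs1.

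Postn encodes periostin, which binds integrins and promotes collagen cross-linking. Postn stood at 10.3, 106, 117 and 72.7 CPM in the sarcomas of mice 948, 1267, 1268_1270 and 2721, at 100.7 CPM in the wild type sarcoma, and at 0 to 2.73 CPM (median 0.206) in marrow. The groups did not overlap, mouse 948 was the lowest sarcoma, and the fitted log2 fold change, SMC3+/- sarcoma over marrow, was 6.52, and it was 7.19 without marrow 2721. Tnc encodes tenascin-C, a large glycoprotein of wounds and tumour stroma. Tnc stood at 5.42, 22.3, 11.3 and 3.45 CPM in the same 4 sarcomas, at 12.7 CPM in the wild type sarcoma, and at 0 to 6.32 CPM (median 0) in marrow. Marrows 2721 and 3332, at 3.53 and 6.32 CPM, reached into the sarcoma range, and 2 of 4 SMC3+/- sarcomas were above all marrows. Tnc had a fitted log2 fold change of 2.92, which was 3.92 without marrow 3332 and 2.32 without sarcoma 1267, and within mouse 2721 the log2 difference was -0.03.

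Spp1 encodes osteopontin, a bone phosphoprotein that binds CD44 and integrins and that macrophages also make. Spp1 stood at 137, 374, 4.70 and 348 CPM in the sarcomas of mice 948, 1267, 1268_1270 and 2721, at 100.3 CPM in the wild type sarcoma, and at 3.38 to 64.4 CPM (median 19.2) in marrow. Sarcoma 1268_1270 was within the marrow range, with 0.544% of the summed sarcoma level, while the other 3 SMC3+/- sarcomas were above every marrow. The tumour with the highest Sparc thus had the lowest Spp1 of all sarcomas. The fitted log2 fold change, SMC3+/- sarcoma over marrow, was 3.0, and it was 3.41 without 1268_1270.

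Tgfbi encodes a secreted matrix protein induced by TGF-beta, a relative of periostin that monocytes and macrophages make. Tgfbi stood at 179, 163, 81.2 and 69.2 CPM in the sarcomas of mice 948, 1267, 1268_1270 and 2721, at 53.5 CPM in the wild type sarcoma, and at 203 to 563 CPM (median 356) in marrow. Every sarcoma was below every marrow at this scaling, though the fitted direction turned with scaling to leukocyte markers, and the wild type sarcoma was the lowest of the 14 samples. On the log2 CPM scale Tgfbi averaged 6.82 ± 0.69 in SMC3+/- sarcomas (SD, n = 4) and 8.45 ± 0.48 in marrow (SD, n = 9). The fitted log2 fold change, SMC3+/- sarcoma over marrow, was -1.73. With scaling to the 10 leukocyte markers it was 0.25, and the median of all genes was then 2.22 instead of 0.07. This scaling raises 1268_1270 the most, since its leukocyte markers summed to 546 CPM, against 5401 to 8783 CPM in the other SMC3+/- sarcomas. The part of this 1 sarcoma in the turn was not tested. The 6 monocyte markers summed to 439 to 2073 CPM in SMC3+/- sarcomas, 355 CPM in the wild type sarcoma and 717 to 5314 CPM in marrow, with no marker at 0 throughout either tissue, and their part in the Tgfbi level was not tested.

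Over the 10 genes, 6 were higher in all 4 SMC3+/- sarcomas than in all 9 marrows, against 4.68% of the 14730 genes tested, and 1 was lower, against 0.115%. As the choice of the genes used this contrast, nothing is read from these shares. Among all genes, edgeR called 4.49% higher and 0.0543% lower in sarcoma at an adjusted p under 0.05. The wild type sarcoma was set against the same marrows, also as a description. It stood above all 9 marrows for 8 of the 10 genes, where 14.4% of all tested genes did, and below all 9 for Tgfbi, where 4.01% did. Thbs1, with 4 marrows above it, was the exception.

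Per kilobase of transcript the tissues had different leading genes. Tgfbi ranked first of the 10 in 9 of 9 marrows, with 51.0% to 96.7% of their summed CPM per kb, against 0.893% to 18.1% in the SMC3+/- sarcomas and 6.58% in the wild type sarcoma. Among sarcomas, Thbs1 led in mouse 948 with 34.6%, Spp1 led in mouse 1267 with 38.5% and in mouse 2721 with 49.7%, and Sparc led in 1268_1270 with 86.6% and in the wild type sarcoma with 43.4%. The sarcomas thus did not share a leading gene. In mouse 948 the lead of Thbs1 rests on tumour 2, at 1678 CPM. Tumour 1 held 12.97 CPM of Thbs1, against 92.6 CPM of Spp1. Sparc took 17.8% to 86.6% of the sum in SMC3+/- sarcomas and 0.0778% to 1.19% in marrow. Thbs1 or Spp1 came second in each marrow. Over the 9 marrows Thbs1 held up to 47.5%, in marrow 949, and Spp1 up to 16.9%, in marrow 2721, where Thbs1 held slightly more. The summed CPM of the 10 genes was 1091 to 8575 in SMC3+/- sarcomas, 784 in the wild type sarcoma and 215 to 1206 in marrow, so the sums overlapped.

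**Figure D3:**
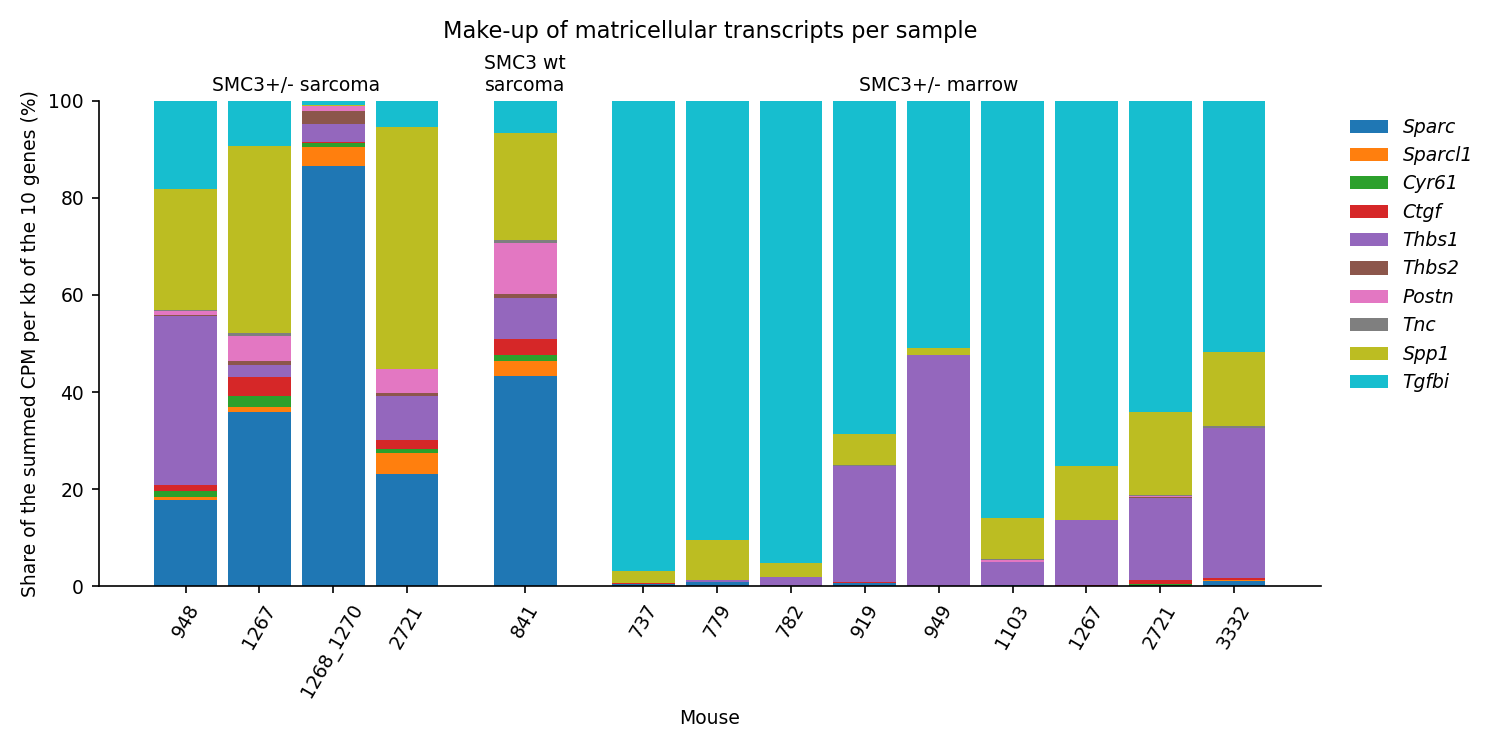
Share (%) of each of the 10 genes in their summed CPM per kilobase of transcript, 1 bar per mouse and tissue, with sarcomas left of marrows. Tgfbi fills 51.0% to 96.7% of every marrow bar, and the leading gene of the sarcoma bars is Thbs1, Spp1 or Sparc. Thbs1 leads only in mouse 948, where its tumours held 12.97 and 1678 CPM of it.

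Summed markers of stromal cells moved with the genes that were higher in sarcoma, though not every marker of each list did. The 8 fibroblast markers summed to 534 to 4916 CPM in SMC3+/- sarcomas, 1366 CPM in the wild type sarcoma and 0.352 to 31.7 CPM in marrow, with no marker at 0 in all marrows. The 9 pericyte and smooth muscle markers summed to 134 to 824 CPM in SMC3+/- sarcomas, 73.6 CPM in the wild type sarcoma and 1.93 to 67.7 CPM in marrow. Of these, Acta2, Cspg4, Des, Pdgfrb and Notch3 overlapped between SMC3+/- sarcomas and marrow, while Rgs5, Tagln, Myl9 and Myh11 did not. Acta2 was at 53.5 CPM in marrow 3332 and 27.3 CPM in sarcoma 948. Des made up 56.7 of 134 CPM in sarcoma 948, whose skeletal muscle markers summed to 1770 CPM. The 9 macrophage markers summed to 466 to 853 CPM in SMC3+/- sarcomas, 133 CPM in the wild type sarcoma and 2.04 to 106 CPM in marrow. Among them Cd163, Vsig4, Marco and Timd4 overlapped between SMC3+/- sarcomas and marrow, while C1qa, C1qb, C1qc, Mrc1 and Folr2 did not. The sum of the endothelial markers overlapped, at 93.8 to 537 CPM in SMC3+/- sarcomas, 344 CPM in the wild type sarcoma and 19.9 to 152 CPM in marrow. Pecam1 made up 125 of the 152 CPM in the highest marrow, 1103. All sarcomas stood above every marrow for Kdr, Tek, Esam, Cldn5 and Emcn, whereas Pecam1, Cdh5, Tie1 and Egfl7 overlapped. The sum of the 7 adipocyte markers did not overlap, at 40969 CPM in 1268_1270 and 184 to 594 CPM in the other SMC3+/- sarcomas. It was 84.4 CPM in the wild type sarcoma and at most 20.9 CPM in marrow. Fabp4 made up 175 of 184 CPM in sarcoma 1267 and 60.5 of 84.4 CPM in the wild type sarcoma. Adipoq, Lep and Retn overlapped between SMC3+/- sarcomas and marrow, while Plin1, Cidec, Fabp4 and Cfd did not. Plin1 was at 0 in the wild type sarcoma. The part of these cells in the values of the 10 genes was not tested. Set against the fibroblast sum of the same sample, Sparc came to 27.9%, 24.4%, 136% and 19.5% in the sarcomas of mice 948, 1267, 1268_1270 and 2721, and to 21.9% in the wild type sarcoma. In marrow it came to 40.0% to 571% in 737, 779 and 782, where the fibroblast sum was at most 0.645 CPM, and to 1.15% to 18.4% in the other 6. Sparc and fibroblast markers thus kept a similar proportion in 4 of 5 sarcomas, and 1268_1270 had several times more Sparc per fibroblast marker. Thbs1 varied more against the same sum, from 4.28% in mouse 1267 to 138% in mouse 948.

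The 2 tumours of a mouse gave a further view of the spread. In mouse 948, Thbs1 stood at 12.97 CPM in tumour 1 and 1678 CPM in tumour 2, a log2 difference of 7.0 that is larger than the SD of 1.43 over the 4 mice. The median transcript of 5 to 7 kb deviated by -0.19 in tumour 1 and 0.15 in tumour 2, and the part of transcript length in the Thbs1 difference was not tested. Tgfbi also differed in that mouse, at 87.7 CPM in tumour 1 and 297 CPM in tumour 2, a log2 difference of 1.76 beside an SD of 0.69. With 297 CPM, tumour 2 lay within the marrow range for Tgfbi, so the absence of overlap holds for the sums per mouse and not for every library. In mouse 2721, Tnc stood at 1.74 CPM in tumour 1 and 5.27 CPM in tumour 2, a log2 difference of 1.55 beside an SD of 1.17. The remaining 17 of 20 differences between tumours of a mouse were smaller than the SD over mice. Sparc was at 128 and 177 CPM in the tumours of mouse 948 and at 231 and 265 CPM in those of mouse 2721.

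The contrast of the wild type sarcoma with the 4 SMC3+/- sarcomas did not choose the genes. None of the 10 passed the test. EdgeR's quasi-likelihood test called 0% of 17762 genes, with 236 genes at an unadjusted p under 0.05 and 67 called by DESeq2, none of them a member of the set. The 1 wild type sample was assumed to vary like the 4 others. The fitted log2 difference, wild type minus SMC3+/- sarcoma, was -2.67 ± 2.65 (SE) for Sparc, with an adjusted p of 0.99994 in edgeR, and 0.09 without 1268_1270. It was -1.19 ± 0.78 (SE) for Tgfbi, the only member whose wild type value lay outside the SMC3+/- range. The share of all genes outside that range was not counted, so nothing is read from this. Of the other members, the fitted difference lay between -3.28 for Thbs2 and 0.38 for Postn. Without 1268_1270 it was -0.28 for Thbs2, 0.06 for Sparcl1 and -0.79 for Cyr61. The SEs ran from 0.78 to 2.83, and values that miss the threshold at such errors do not show that the genotypes are alike.

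Within the 9 marrows, the 4 members with a median of at least 10 counts (Sparc, Thbs1, Spp1 and Tgfbi) were set against the mean log2 CPM of 5 marker lists, 20 relations in all, with exact two-sided permutation tests adjusted by the Benjamini-Hochberg method. By Pearson's r, 3 relations passed, and by Spearman's rho none did. Spp1 followed the osteoblast markers, bone-forming cells in which osteopontin is a known product, with r = 0.84 (n = 9, exact permutation p = 0.00666, adjusted p = 0.0444) and rho = 0.85 (exact permutation p = 0.00607, adjusted p = 0.0607). Without the 2 mice farthest from the median of these markers r was 0.78, and without the 3 marrows poor in long transcripts it was 0.92 (n = 6, exact permutation p = 0.00833). The osteoblast markers were themselves low, with a sum of 0.160 to 17.5 CPM, and Bglap2 was at 0 in every marrow. Ibsp made up most of the highest sums, with 15.9 of 17.5 CPM in marrow 2721 and 10.3 of 12.2 CPM in marrow 3332. Spp1 also gave r = 0.73 with macrophage markers (exact permutation p = 0.02035, adjusted p = 0.0844). With fibroblast markers r was 0.71 (exact permutation p = 0.0379, adjusted p = 0.108). These were 0.36 and 0.51 without the 2 farthest mice, and 0.69 and 0.75 over the 6 marrows.

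Sparc followed the macrophage markers, with r = 0.87 (n = 9, exact permutation p = 0.00187, adjusted p = 0.0374) and rho = 0.87 (exact permutation p = 0.00451, adjusted p = 0.0607). Without the 2 farthest mice r was 0.63, and over the 6 other marrows it was 0.80 (n = 6, exact permutation p = 0.0667). Against fibroblast markers, Sparc gave r = 0.22 over the 9 marrows (exact permutation p = 0.567, adjusted p = 0.784) and rho = 0.35 (exact permutation p = 0.359, adjusted p = 0.652). Over the 6 marrows other than 737, 779 and 782 these were r = 0.60 (n = 6, exact permutation p = 0.194) and rho = 0.77. These 6 include marrow 1267, which was at -0.73 for transcripts over 6 kb. Sparc and the monocyte markers gave r = 0.74 (n = 9, exact permutation p = 0.0211, adjusted p = 0.0844) and rho = 0.68 (exact permutation p = 0.0503, adjusted p = 0.168), with r = 0.55 without the 2 farthest mice and 0.46 over the 6 marrows. Tgfbi followed the monocyte markers, with r = 0.82 (n = 9, exact permutation p = 0.00585, adjusted p = 0.0444) and rho = 0.68 (exact permutation p = 0.0503, adjusted p = 0.168). This relation rested on the farthest mice, since r was 0.51 without the 2 farthest mice and 0.41 over the same 6 marrows (n = 6, exact permutation p = 0.429). The Thbs1 values fell into 2 clusters by long-transcript content. With the 9 megakaryocyte and platelet markers r was 0.50 over the 9 marrows (exact permutation p = 0.165, adjusted p = 0.330) and 0.87 without the 2 farthest mice. Within the 6 marrows of the upper cluster it was -0.14 (n = 6, exact permutation p = 0.764). With fibroblast markers r was 0.73 over the 9 (exact permutation p = 0.0314, adjusted p = 0.105) and -0.19 over the 6. With monocyte markers r was -0.13 over the 9 and 0.50 over the 6, where rho was 0.83. Sparcl1, Cyr61, Ctgf, Thbs2, Postn and Tnc had too few marrow counts for this comparison.

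**Figure D4:**
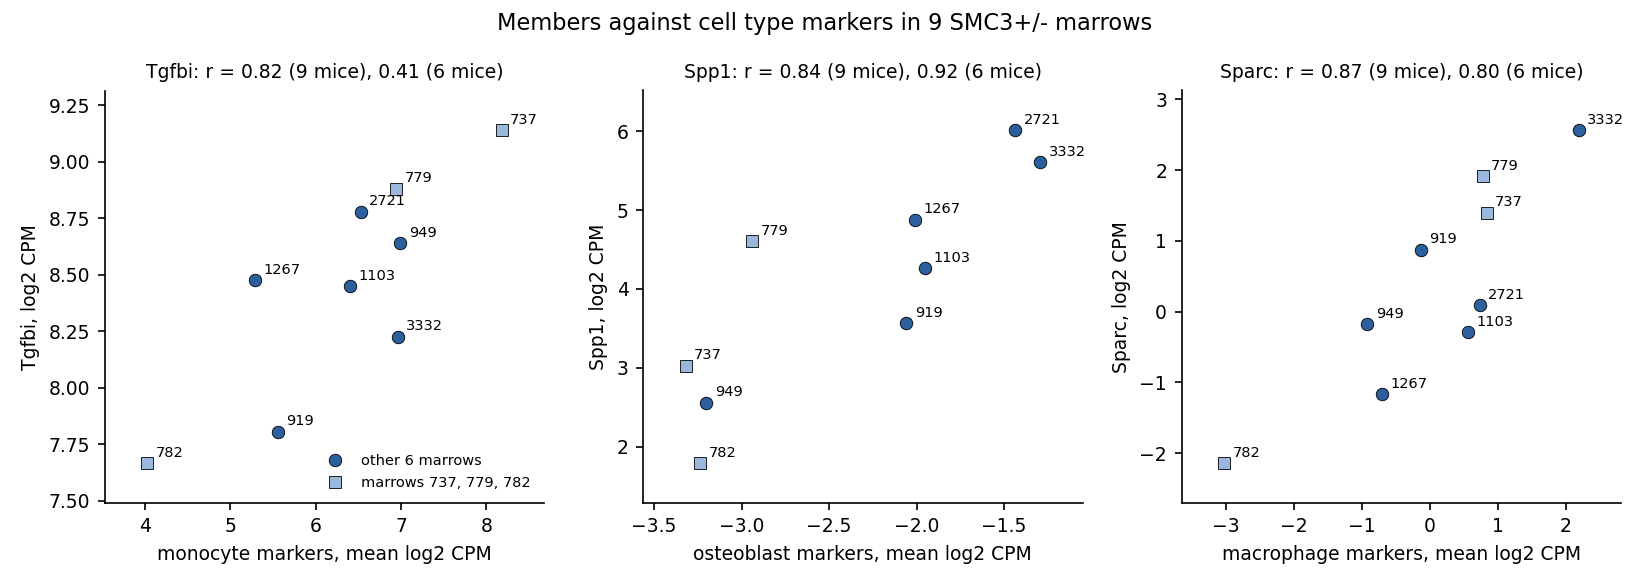
Member level (log2 CPM, vertical axis) against the mean log2 CPM of a marker list (horizontal axis) in 9 SMC3+/- marrows, 1 labelled point per mouse, with squares for the 3 marrows poor in long transcripts. The relation of Spp1 with osteoblast markers is as close among the other 6 mice (r = 0.92), whereas that of Tgfbi with monocyte markers is weaker there (r = 0.41).

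Genes with a like pattern over the 14 samples were ranked by Pearson's r of log2 CPM among 9125 genes with a mean of at least 3, as a description. The points share tissue and handling, so a high r mostly reflects the gap between sarcoma and marrow. For Sparc the closest ranked genes were Fabp4, a fatty acid carrier of adipocytes and macrophages, with r = 0.91, then Ikbip, Ctsl, Sdc3 and Tpm1. Sparcl1, Thbs2 and Cyr61, near 0 in marrow, fell below the mean of 3 and were not ranked. Their r with Sparc was 0.965, 0.914 and 0.911, against 0.909 for Fabp4. Fabp4 was at 142 to 15208 CPM in SMC3+/- sarcomas, with the highest value in 1268_1270, at 60.5 CPM in the wild type sarcoma and at 0.600 to 18.3 CPM in marrow. For Sparcl1 the closest were Sparc (r = 0.97), Pltp, Fabp4, Ppap2a and Ctsl. For Cyr61 they were the collagen gene Col1a2 (r = 0.92), Sparc, Ick, Col1a1 and Nat6. For Tgfbi they were Kctd20 (r = 0.86), Tpm3, Hpcal1, Actg1 and Irf8, a transcription factor of monocytes. Among the members, Sparc, Sparcl1, Cyr61 and Thbs2 had r of 0.91 to 0.97 with each other, whereas Thbs1 had r of -0.43 to 0.58 with the other 9.

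For genes that work with matricellular proteins, 5 lists were read from the sarcoma and marrow comparison, leaving out the 10 members. The test was edgeR's quasi-likelihood test with Benjamini-Hochberg adjustment over 14730 genes, of which 4.49% were called higher in sarcoma. The median log2 fold change over all genes was 0.07. With scaling to leukocyte markers this median was 2.22, and 12 of 14 matrix partners, 9 of 15 relatives, 11 of 18 receptors, 15 of 16 TGF-beta genes and 17 of 18 YAP and TEAD genes were called higher, with 1 relative called lower. The list medians were then 8.70, 7.02, 3.28, 4.83 and 7.99 in that order. Many listed genes were near 0 in marrow and passed the count filter through the sarcomas, which presets part of each count. The direction of the 17 called genes with the smallest adjusted p, up to 4 per list, was the same in every alternative that tested them. Of these calls, 12 remained without the 4 libraries that earlier work on these data had set apart as poor in long transcripts. These were marrows 737, 779 and 782 and tumour 1 of mouse 948, while marrow 1267, at -0.73 over 6 kb, was kept. Without 1268_1270, 7 calls remained, and 5 did with the mouse as a block (Fstl1, Smoc2, Arhgap29, Col3a1 and Col5a2). The block fit takes its tissue difference from mice 1267 and 2721 alone. DESeq2 called 10 of the 17 and gave no adjusted p for the other 7.

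Partners in the collagenous matrix formed the list with the most calls, 11 of 14 tested higher and none lower, with a median log2 fold change of 5.67. Col3a1, the fibrillar collagen of soft tissue, was at 648 ± 367 CPM in SMC3+/- sarcomas (SD, n = 4) and 0.486 ± 0.713 CPM in marrow (SD, n = 9), and rose by a log2 fold change of 10.23 ± 1.18 (SE, edgeR adjusted p = 0.000427). Dcn, the collagen-binding proteoglycan decorin, rose by 9.89 ± 1.28 (SE, edgeR adjusted p = 0.000831), and Col5a2 by 8.17 ± 1.17 (SE, edgeR adjusted p = 0.00127). Without 1268_1270, which held 1539 CPM of Dcn where the next sarcoma held 140 CPM, the log2 fold change was 7.59 for Dcn and 6.91 for Col5a2. Vtn, encoding vitronectin, had 2 counts over all marrows and 2.56 to 12.6 CPM in SMC3+/- sarcomas (edgeR adjusted p = 0.000831). Fn1, Vcan and Col5a1 were not called, and their fitted log2 fold changes were -1.48, -0.84 and 2.77. The list held 8 calls without 1268_1270, 10 without the 4 libraries and 4 with the mouse as a block. The 4 genes named here kept their calls without 1268_1270.

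Of the relatives of the members, 6 of 15 tested genes were higher and none lower, with a median log2 fold change of 3.95. Fstl1, a secreted glycoprotein of the SPARC family, was at 208 ± 172 CPM in SMC3+/- sarcomas (SD, n = 4) and 1.91 ± 2.14 CPM in marrow (SD, n = 9), and rose by 6.68 ± 0.79 (log2, SE, edgeR adjusted p = 0.000494), or by 6.0 without 1268_1270. Smoc1 and Smoc2, calcium-binding SPARC relatives, rose by 6.30 ± 1.35 and 6.96 ± 1.22 (log2, SE, edgeR adjusted p = 0.0142 and 0.00429). Both calls were lost without 1268_1270, at log2 fold changes of 1.61 for Smoc1 and 4.80 for Smoc2, and this sarcoma held 656 CPM of Smoc1 where the next sarcoma held 10.3. Wisp1, a CCN protein, rose by 5.92 ± 1.37 (log2, SE, edgeR adjusted p = 0.0212), a call lost without sarcoma 1267 or 1268_1270, though the log2 fold change was 6.21 without 1268_1270 (edgeR adjusted p = 0.0576). Ibsp, the bone sialoprotein gene, had a fitted log2 fold change of -8.33 and missed the threshold (edgeR adjusted p = 0.0570). DESeq2 called 5 relatives higher and 1 lower and gave no adjusted p for 5 of the 15. The list held 1 call without 1268_1270, 2 without the 4 libraries and 2 with the mouse as a block.

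Receptors were called least, with 2 of 18 higher and none lower and a median log2 fold change of 0.73. Cd36, the thrombospondin receptor that also carries fatty acids into adipocytes, rose by 6.71 ± 1.31 (log2, SE, edgeR adjusted p = 0.00794), with 4865 CPM in 1268_1270, 76.3 to 161 CPM in the other SMC3+/- sarcomas and 0 to 45.8 CPM in marrow. Cacna2d1, a calcium channel subunit that binds thrombospondins, rose by 6.26 ± 1.33 (log2, SE, edgeR adjusted p = 0.0136). Both calls were lost without 1268_1270 and with the mouse as a block, and 1 was left without the 4 libraries. Without 1268_1270 the log2 fold change was 2.96 for Cd36 and 5.49 for Cacna2d1, and with the mouse as a block it was 2.10 for Cd36 and 9.15 for Cacna2d1. Among the 16 receptors not called, the fitted log2 fold change was -0.05 for Cd47 and -0.68 for the osteopontin receptor Cd44. It was -0.65, -0.83, -0.80 and -0.76 for the integrin chains Itgam, Itgb2, Itga4 and Itgb3.

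Of the TGF-beta pathway, 3 of 16 genes were higher and none lower, with a median log2 fold change of 1.67. Ltbp3, which holds TGF-beta latent in the matrix, and Tgfb3 rose by 4.89 ± 1.06 and 5.54 ± 1.40 (log2, SE, edgeR adjusted p = 0.0149 and 0.0339), and both calls were lost without 1268_1270, at 1.97 for Ltbp3 and 3.71 for Tgfb3. The call of Tgfb3 was also lost without marrow 779, 919 or 3332. With the mouse as a block the list held no call. The ligand Tgfb1 had a fitted log2 fold change of -0.72 and the receptor Tgfbr1 of 0.04, and neither was called.

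Of the YAP and TEAD list, which holds the upstream regulators of Cyr61 and Ctgf beside other targets, 7 of 18 genes were higher and none lower, with a median log2 fold change of 4.69. Wwtr1, encoding TAZ, rose by 8.10 ± 1.45 (log2, SE, edgeR adjusted p = 0.00500), its DNA-binding partner Tead1 by 7.24 ± 1.48 (adjusted p = 0.0107) and the target Arhgap29 by 8.30 ± 1.56 (adjusted p = 0.00656). These 3 calls were lost without 1268_1270, at log2 fold changes of 4.50 for Wwtr1, 3.67 for Tead1 and 4.17 for Arhgap29, and this sarcoma held 328 CPM of Wwtr1 where the next sarcoma held 9.64. Ankrd1, another target, showed the opposite distribution, with 0.723 CPM in 1268_1270 and up to 6.41 CPM in the other SMC3+/- sarcomas, against 8 counts over all marrows. It rose by 6.89 ± 1.31 (log2, SE, edgeR adjusted p = 0.00708) and kept its call when any 1 mouse was left out, though not without the 4 libraries (edgeR adjusted p = 0.0797). DESeq2 called 2 genes of this list and gave no adjusted p for 11 of the 18, and the list held 1 call without 1268_1270, 3 without the 4 libraries and 1 with the mouse as a block. The kinases Lats1 and Lats2, which restrain YAP, had fitted log2 fold changes of 0.14 and 0.01 and were not called.

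**Figure D5:**
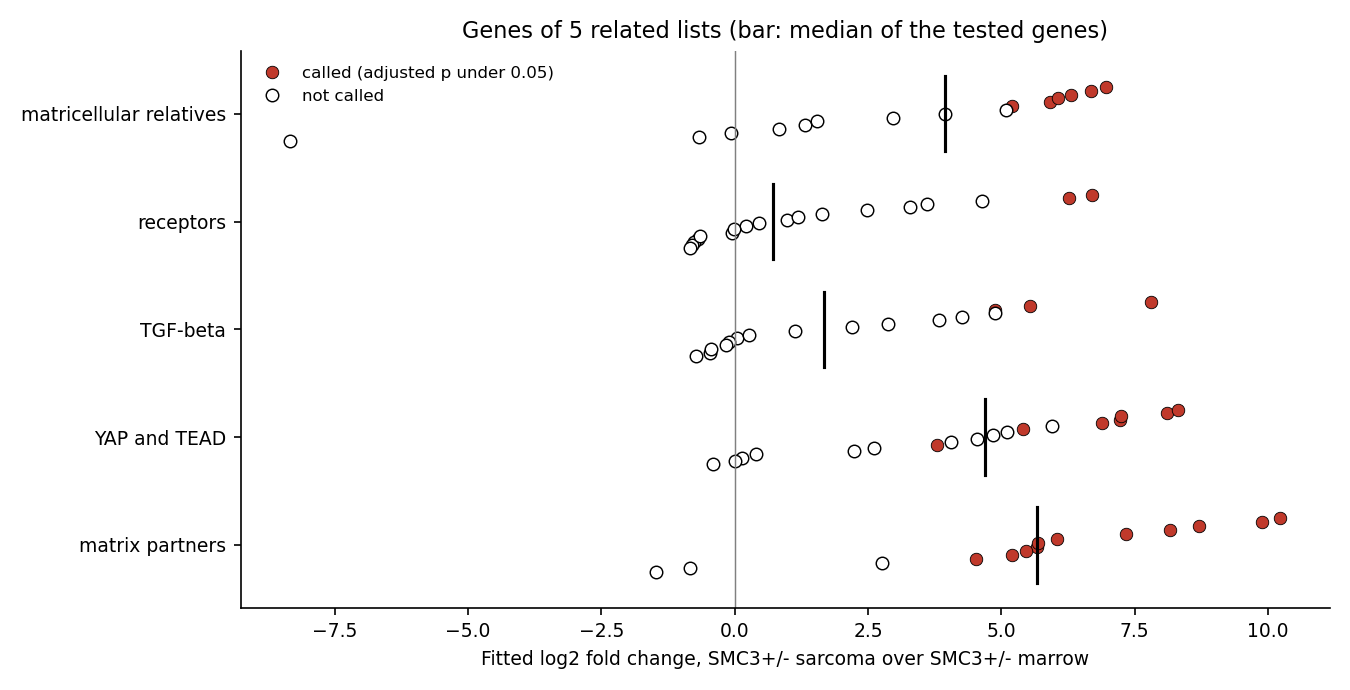
Fitted log2 fold change, SMC3+/- sarcoma over SMC3+/- marrow (horizontal axis), of the tested genes in 5 lists, filled where edgeR's adjusted p was under 0.05, with a bar at the median of each list. The matrix partners have 11 of 14 genes filled and a median of 5.67, and the receptors 2 of 18 and a median of 0.73.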

How the data were processed

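The authors deposited whole-number raw counts per gene symbol, with 23999 symbols in 16 libraries, made from poly(A)-selected RNA per the labels' protocols. The submitters' processing notes name STAR, DESeq, DESeq2 and mm9, without roles or order. The sources used here do not give strand settings or the annotation. All columns were mapped by name, and every row had a symbol. Counts carry no molecular identifiers, so intervals cover counting error only.

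Libraries were summed per mouse and tissue. The labels do not say that every sample came from a separate litter or batch. EdgeR 4.0.16 under R 4.3.3 scaled counts by TMM, filtered them with filterByExpr and compared groups by its quasi-likelihood test, fitted to all genes with Benjamini-Hochberg adjustment at 0.05. SEs were back-calculated from the F statistic and are approximate. Log2 CPM used a prior count of 2. DESeq2 1.42.0, other scalings and filters, removal of libraries and a mouse block were alternatives, and the tests were checked on simulated data. The labels give both tissues for mice 1267 and 2721, which pairs these samples by mouse. With a mouse block, only these mice inform the tissue difference. Deviations from the tissue means in both tissues correlated with r = 0.36 in mouse 1267 and 0.32 in mouse 2721 over 9125 genes.

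Transcript lengths came from the longest protein-coding transcript of the GENCODE annotation of a later build than mm9, matched by symbol for 98.45% of symbols and used for lengths only. Members, gene lists and marker lists were chosen with earlier results of these data known. Named genes were the 10 members, up to 4 called genes per list with the smallest adjusted p, the 5 genes most like Sparc, Sparcl1, Cyr61 and Tgfbi, and genes named for context, picked after their values were seen. A called gene that met this rule is not reported here. The marker lists for marrow reticular, schwann, epithelium, osteoclast and skeletal muscle cells were summed too. In SMC3+/- sarcomas, the wild type sarcoma and marrow they came to 33.3 to 269, 12.6 and 0 to 32.9 CPM for marrow reticular, 52.6 to 95.7, 71.9 and 44.3 to 140 CPM for schwann, and 2.35 to 30.8, 26.9 and 0 to 5.45 CPM for epithelium. They came to 135 to 621, 46.9 and 24.8 to 70.8 CPM for osteoclast, and 8.03 to 1770, 35.7 and 11.6 to 77.1 CPM for skeletal muscle.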

Additional observations from a re-analysis of the deposited data

Results flagged for a closer look

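Sparcl1 in marrow 3332 stood apart from the other marrows, at 0.0987 CPM where the other 8 of 9 SMC3+/- marrows had no count. The value rests on 3 counts. It was the only flag among 20 groups of 4 or 9 mice that were looked at, and chance alone flags about 1 in 20 such groups. That rate does not cover tied values. With the other 8 marrows at 0, any count in marrow 3332 would have been flagged. Marrow 3332 also held the highest Sparc (5.82 CPM) and Tnc (6.32 CPM) of the 9 marrows, and the highest sums of macrophage (106 CPM), fibroblast (31.7 CPM), pericyte and smooth muscle (67.7 CPM) and osteoclast (70.8 CPM) markers.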

How the results depend on the processing

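The count of genes that differed between sarcoma and marrow, 670 (662 higher and 8 lower), was 130 with the mouse as a block (107 higher and 23 lower), 303 without the 4 libraries set apart as poor in long transcripts, 62 without those and sarcoma 1268_1270, 1368 with no count filter and 9249 with scaling to leukocyte markers. The block fit takes its tissue difference from mice 1267 and 2721 alone. The count ranged from 170, without sarcoma 1268_1270, to 765 when each mouse was left out, and the causes were not tested. In the comparison of the wild type with the SMC3+/- sarcomas the count was 67 with DESeq2 and 0 to 1 when each mouse was left out. The fitted log2 fold change of Thbs1, sarcoma over marrow, was -0.56 with the mouse as a block, and that of Tgfbi was 0.25 with leukocyte scaling. Under the other alternatives the 10 members kept their direction. For the wild type minus SMC3+/- difference, leaving out each mouse gave -3.03 to 0.092 for Sparc, -2.47 to 0.064 for Sparcl1, -0.45 to 0.27 for Ctgf and -0.019 to 0.93 for Tnc, and leukocyte scaling gave -1.65 for Postn and -1.37 for Tnc. The Tnc difference between the tumours of mouse 948 was 0.023 with leukocyte scaling. Of 20 marrow relations, 3 passed the threshold, against 1 with a prior count of 0.5 and 0 without marrows 737, 779 and 782, where fewer mice were tested. Without those 3 marrows r was -0.14 for Thbs1 and megakaryocyte, 0.50 for Thbs1 and monocyte, -0.055 for Thbs1 and macrophage, -0.34 for Thbs1 and osteoblast, -0.19 for Thbs1 and fibroblast, -0.34 for Spp1 and megakaryocyte, and -0.13 for Tgfbi and macrophage markers. With library totals in place of TMM, r was 0.14 for Tgfbi and megakaryocyte and 0.13 for Tgfbi and osteoblast markers. Few marrow counts limit the precision for Sparcl1, with 3 counts over 9 marrows, and for Cyr61 and Thbs2, with 87 and 99.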
